A study of Mus musculus with 6 samples.

Results

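The forkhead (Fox) family of transcription factors was followed across Flk1-positive cells and whole embryos of the mouse. Members were all probe sets whose single gene symbol in the platform annotation is Fox, a letter from a to s and a number. This gave 82 of 45101 probe sets and 37 of 18193 genes, and each gene was read from its brightest probe set over all arrays. The other probe sets of a gene were used to see whether they gave the same direction.

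The study profiled total RNA on Affymetrix arrays, with 2 arrays in each of 3 groups and 6 arrays in all. The groups were Flk1-positive cells, embryos proper of the Flk1 KO genotype (labelled Flk1KO), and WT embryos proper. All came from ICR mice at 8.5 dpc with 3 to 4 somites, a stage that the labels place before blood begins to circulate. The series design text names Flk1+/GFP embryos as a source. No label says how Flk1-positive cells were picked out, and the WT embryos also contain cells of that kind. Nothing in the labels tells whether the 2 arrays per group are separate litters or pools, so p-values reflect no more than the spread between these arrays, and it may be technical.

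Forkhead proteins bind DNA through a winged-helix domain, and several of them can open closed chromatin ahead of other factors. In the early embryo Foxa factors act in endoderm and the midline, Foxd factors in neural and neural crest progenitors, Foxc and Foxf factors in mesoderm, and Foxh1 in Nodal signalling. In vessels, Foxo1 and the Foxc factors are needed for remodelling, and forkhead and ETS proteins bind composite FOX:ETS motifs in enhancers of endothelial genes.

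Values are the signals that the authors deposited, scaled so that the trimmed mean of each array is 500. A signal of 57.4 was taken as background, the 95th percentile of 80 probe sets for olfactory and vomeronasal receptors, genes of the nose. Differences and their standard errors (SE) are on the log2(signal + 21.6) scale, tested with limma at an adjusted p of 0.05 over 33778 probe sets, and this scale understates the change of dim genes. Probe sets differ in affinity, so the level of one gene is not set against that of another.

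Kdr, which encodes Flk1, gave signals of 3309 and 3328 on Flk1-positive arrays, 29.5 and 63.8 on Flk1 KO arrays and 544 and 546 on WT arrays. The labels and Kdr therefore point the same way, although the place of this probe set relative to the deleted part is not known here. All 10 listed endothelial markers were above background in Flk1-positive cells, with a summed signal of 46640 to 46699, against 1024 to 1072 in Flk1 KO embryos (4 of 10 above background) and 3181 to 3398 in WT embryos (10 of 10). The same cells held all 6 primitive erythroid and all 7 other blood cell markers above background, so the label was read as Flk1-positive cells and not as endothelium alone. Between arrays of 1 group the correlation over probe sets was 0.980 to 0.985, against 0.899 to 0.917 between Flk1-positive cells and embryos.

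Of the 37 forkhead genes, 29 had a mean above background in at least 1 group and 33 passed the filter on low values. Against WT embryos, 1 of the 33 tested genes was higher in Flk1-positive cells and 16 were lower (3.03% and 48.5%), while 12.5% and 18% of all 14949 genes tested were higher and lower. The median difference was -0.56 for the forkhead genes and -0.09 for all genes. Foxo1 was the member that rose, and the 16 that fell were Foxa1, Foxa2, Foxa3, Foxb1, Foxc1, Foxc2, Foxd1, Foxd2, Foxd3, Foxd4, Foxh1, Foxn4, Foxo4, Foxp1, Foxp2 and Foxq1. Foxn4 passed the filter on low values only through its WT arrays. Against Flk1 KO embryos, 2 members were higher, Foxo1 and Foxn2, and 15 were lower (6.06% and 45.5%, with 13.2% and 19.5% of all genes), at a median of -0.40 (all genes -0.08). Both comparisons use the same 2 Flk1-positive arrays, and 13 members were lower in these cells than in both kinds of embryo.

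In Flk1-positive cells 26 of the 33 tested members had arrays that did not overlap those of WT embryos, 5 of them higher and 21 lower (all genes 30.5% and 42.1%). Against Flk1 KO embryos there were 23 such members, 5 higher and 18 lower (all genes 29.3% and 40.2%). Of the members lower than in WT embryos, 9 had a Flk1-positive mean below background, so that their fall is given as a lower bound where a fold is printed. In embryo RNA, fewer cells of a type and less RNA per cell cannot be told apart. The lower counts of the family fell when any 1 of the arrays compared was left out, and so did those of all genes. Foxo1 then lost its call against WT embryos. Foxn2 lost its call against Flk1 KO embryos when any array other than Flk1 KO array 2 was left out.

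**Figure D1:**
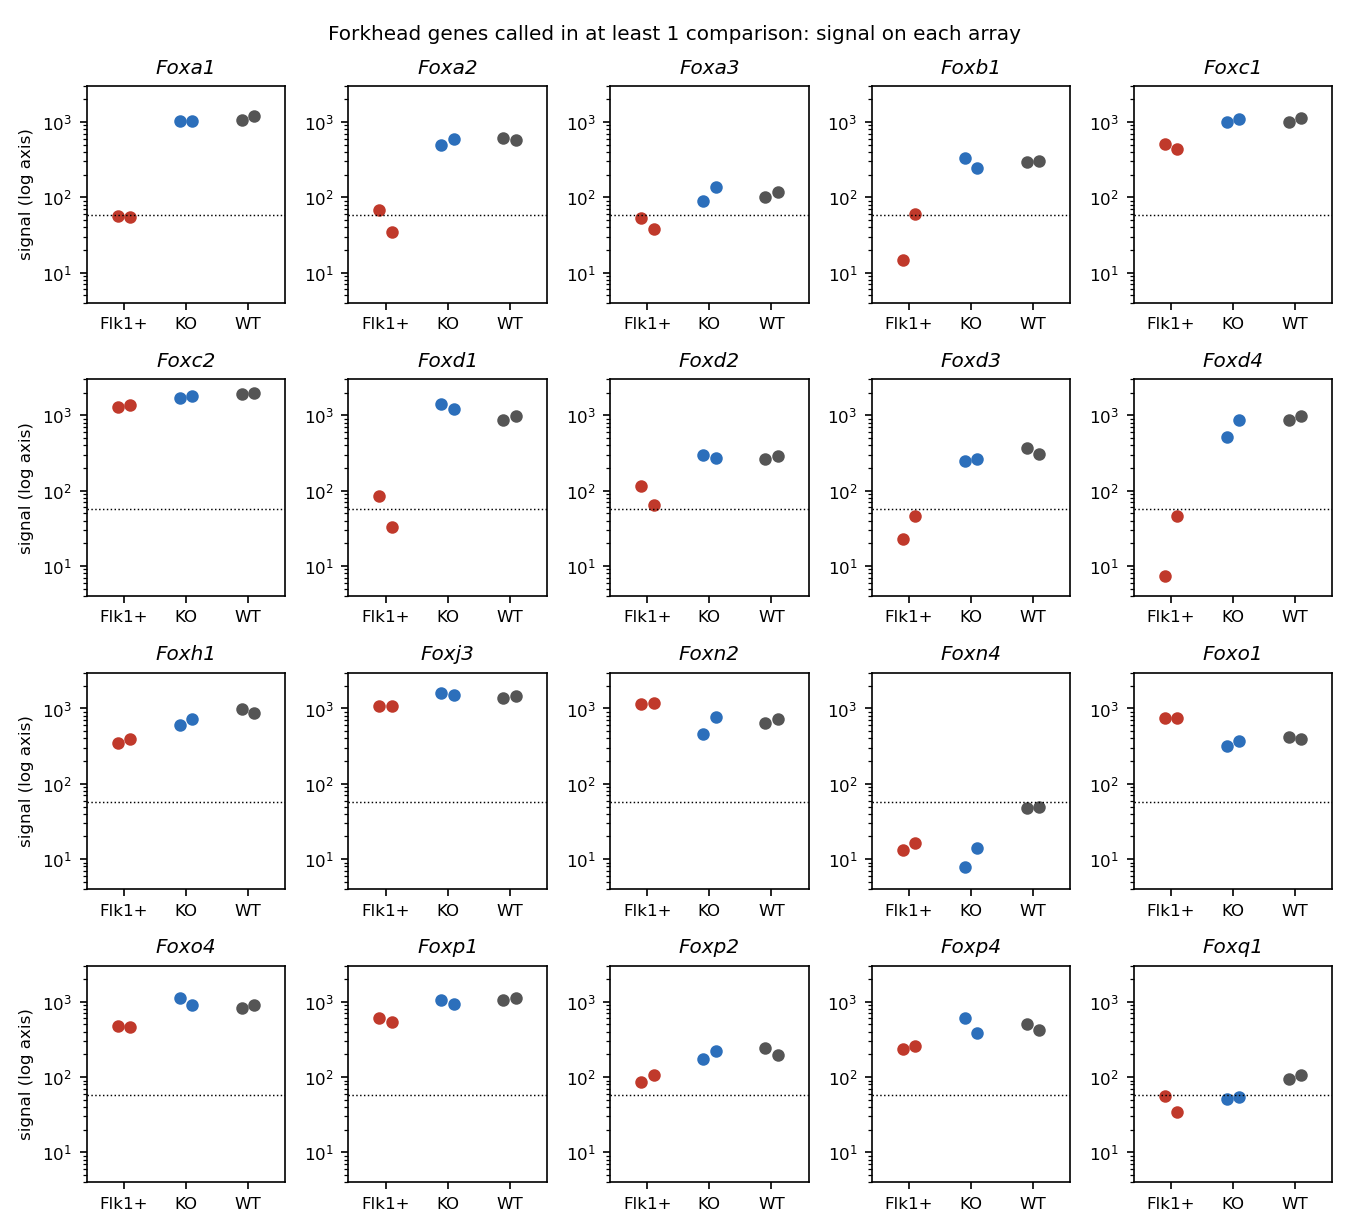
Signal on each array (log axis) for the 20 forkhead genes called in at least 1 comparison, with 1 point per array, Flk1-positive cells in red, Flk1 KO embryos in blue and WT embryos in grey. The dotted line is the background of 57.4; Foxo1 and Foxn2 have their highest points in Flk1-positive cells, and Foxa1, Foxd1 and Foxd4 have theirs in embryos, with the Flk1-positive points near or below the line.

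Promoters of 5 members are shown because they stand at the ends of the range described below: Foxo1, the member that rose, the 3 with the widest falls and a single promoter entry (Foxd4, Foxa1, Foxd1), and Foxc1, a mesodermal member with a smaller fall, chosen after its values were seen. Each is the 250 bases before the annotated start in the gene's own direction, from RefSeq on GRCm38.p6. Capitals mark matches on either strand to the forkhead core TAAACA, the ETS core CCGGAA, the GC box GGGCGG, the box named after its letters CCAAT, or the TATA box TATAAA.
Foxo1, chr3:52268087-52268336, plus strand: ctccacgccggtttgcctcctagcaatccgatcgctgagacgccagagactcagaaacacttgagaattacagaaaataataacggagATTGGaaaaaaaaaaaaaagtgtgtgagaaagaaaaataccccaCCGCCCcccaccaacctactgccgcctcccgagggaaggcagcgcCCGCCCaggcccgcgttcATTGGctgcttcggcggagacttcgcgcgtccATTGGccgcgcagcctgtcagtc
Foxd4, chr19:24901017-24901266, minus strand: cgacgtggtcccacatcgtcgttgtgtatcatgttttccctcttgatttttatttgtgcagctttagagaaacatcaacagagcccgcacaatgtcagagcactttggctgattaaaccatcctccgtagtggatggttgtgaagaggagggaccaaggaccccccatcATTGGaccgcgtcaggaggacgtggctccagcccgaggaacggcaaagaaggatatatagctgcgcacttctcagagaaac
Foxa1, chr12:57546112-57546361, minus strand: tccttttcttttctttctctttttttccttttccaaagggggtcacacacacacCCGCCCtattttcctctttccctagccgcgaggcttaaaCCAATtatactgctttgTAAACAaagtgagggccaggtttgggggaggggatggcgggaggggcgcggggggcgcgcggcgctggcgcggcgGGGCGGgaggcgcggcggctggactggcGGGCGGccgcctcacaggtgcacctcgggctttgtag
Foxd1, chr13:98353995-98354244, plus strand: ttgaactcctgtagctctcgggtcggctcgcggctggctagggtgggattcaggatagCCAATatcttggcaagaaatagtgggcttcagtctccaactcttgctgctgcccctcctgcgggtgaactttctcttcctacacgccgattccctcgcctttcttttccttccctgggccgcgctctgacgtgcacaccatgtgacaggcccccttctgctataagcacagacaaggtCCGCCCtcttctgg
Foxc1, chr13:31806396-31806645, plus strand: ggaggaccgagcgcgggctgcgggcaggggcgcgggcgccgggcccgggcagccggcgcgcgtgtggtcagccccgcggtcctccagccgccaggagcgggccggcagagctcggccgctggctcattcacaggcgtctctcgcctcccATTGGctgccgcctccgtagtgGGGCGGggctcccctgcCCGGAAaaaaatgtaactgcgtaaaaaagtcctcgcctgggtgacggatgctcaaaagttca
The Foxo1 promoter held 3 CCAAT boxes and 2 GC boxes, the Foxa1 promoter 3 GC boxes, 1 CCAAT box and 1 forkhead core, and the Foxc1 promoter 1 match each to the ETS core, the GC box and the CCAAT box. The Foxd1 promoter held 1 GC box and 1 CCAAT box, and the Foxd4 promoter 1 CCAAT box.

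Promoter entries were found for 24 of the 37 genes, 29 entries in all. A GC box lay in 69.0% of them, against 32.7% of all 32851 promoters of that length. The CCAAT box was in 44.8% against 33.8%, the forkhead core in 17.2% against 12.0%, the TATA box in 10.3% against 12.4% and the ETS core in 6.9% against 12.0%. The median GC content was 62.8% in forkhead promoters and 52.4% in all promoters. The forkhead and TATA letters can overlap through a shared TAAA, and other pairs can share end bases. A match describes letters in this window and is not a binding site.

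Foxo factors are held in the cytoplasm when AKT phosphorylates them, and mice without Foxo1 die with an unformed yolk sac vasculature. Foxo1 gave signals of 744 and 737 on Flk1-positive arrays, 313 and 373 on Flk1 KO arrays and 418 and 389 on WT arrays. Both Flk1-positive arrays lay above all 4 embryo arrays, and the embryo groups stood close together. The difference from WT embryos was 0.84 ± 0.14 (SE, adjusted p = 0.0109), a 1.80-fold rise, and from Flk1 KO embryos 1.07 ± 0.14 (adjusted p = 0.00459), a 2.10-fold rise. The other tested probe sets were higher than in WT embryos by 0.92 and 1.37, both past the threshold, and the last of the 4 was near the floor in every group and was not tested. The call against WT embryos was lost when any 1 of the 4 arrays compared was left out (adjusted p 0.055 to 0.0705), while the call against Flk1 KO embryos was kept in every alternative run, with an adjusted p of at most 0.0294 when 1 array was left out.

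At their brightest probe sets the other Foxo genes did not share this direction. Foxo4 gave signals of 478 and 457 on Flk1-positive arrays, 1136 and 909 on Flk1 KO arrays and 837 and 906 on WT arrays. Its Flk1-positive arrays were the lowest, at a difference of -0.87 ± 0.16 from WT embryos (adjusted p = 0.0135) and -1.09 ± 0.16 from Flk1 KO embryos (adjusted p = 0.006). Leaving out any 1 of the arrays compared ended the call against WT embryos. The median over its probe sets ended both calls (adjusted p = 0.256 and 0.137). The second Foxo4 probe set was below background on every array. Foxo3, which like Foxo1 acts in stress resistance, averaged 550 in Flk1-positive cells, 582 in Flk1 KO embryos and 673 in WT embryos. Its difference from WT embryos, -0.28 with a 95% interval of -0.73 to 0.17, did not pass the threshold. A second Foxo3 probe set gave -0.18 (adjusted p = 0.421). Another, below background and not tested, ran the other way. It gave signals of 48.1 and 44.5 on Flk1-positive arrays, 9.45 and 10.9 on Flk1 KO arrays and 6.22 and 6.77 on WT arrays.

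Among 20 tested regulators of FOXO proteins, 4 were higher and 1 was lower in Flk1-positive cells relative to WT embryos (20% and 5%, against 12.5% and 18% of all genes), with a median of -0.12 against -0.09 for all genes. The kinase Sgk1, which phosphorylates FOXO proteins, rose by 2.27 ± 0.14 (adjusted p = 0.000569), and Akt1 rose by 0.82 ± 0.15 (adjusted p = 0.016). Stk4, a kinase that promotes FOXO entry into the nucleus, had a difference of -0.72 ± 0.15 (adjusted p = 0.0198). Akt1 lost its call without either Flk1-positive array or WT array 2 (adjusted p up to 0.0895), and Stk4 without any 1 of the arrays compared (up to 0.104) and with the median over its probe sets (-0.41, adjusted p = 0.0734).

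Of 25 genes known as FOXO targets in various tissues, 5 were higher and 5 were lower (20% each, against 12.5% and 18% of all genes), with a median of -0.08 against -0.09 for all genes. Against WT embryos these shares and this median are near those of all genes. Klf2, a flow-responsive factor of endothelium, was higher by 3.64 ± 0.18 (adjusted p = 0.000433), and Nos3, the endothelial nitric oxide synthase, by 3.27 ± 0.19 (adjusted p = 0.000491). Fbxo32, a ubiquitin ligase of muscle, was at least 2.32-fold lower (adjusted p = 0.00753), and the stress gene Gadd45a had a difference of -1.85 ± 0.15 (adjusted p = 0.00113). Against Flk1 KO embryos 8 of the 25 targets were higher and 8 were lower (32% each, with 13.2% and 19.5% of all genes). The median in that comparison was 0.02 (all genes -0.08).

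Foxc1 and Foxc2 overlap in function in somites, heart and vessels, and Foxc2 binds FOX:ETS motifs together with the ETS factor Etv2. Foxc1 gave signals of 513 and 439 on Flk1-positive arrays, 997 and 1083 on Flk1 KO arrays and 1007 and 1138 on WT arrays. The embryo groups lay side by side and both Flk1-positive arrays were below them, at -1.14 ± 0.15 from WT embryos (adjusted p = 0.00482) and -1.10 ± 0.15 from Flk1 KO embryos (adjusted p = 0.00496). A second Foxc1 probe set gave -1.13 ± 0.13 against WT embryos (adjusted p = 0.00343). Its signal was still far above background in the Flk1-positive cells.

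Foxc2 gave signals of 1269 and 1359 on Flk1-positive arrays, 1686 and 1806 on Flk1 KO arrays and 1915 and 1982 on WT arrays. The groups did not overlap, but the gap was small. The difference from WT embryos, -0.56 ± 0.13 (adjusted p = 0.0272), was lost when any 1 of the arrays compared was left out (adjusted p up to 0.132) and with median centring (0.0599). From Flk1 KO embryos the difference was -0.40 ± 0.13 (adjusted p = 0.0646), and it passed the threshold in 5 alternatives (adjusted p 0.00981 to 0.0441). Foxs1, a member known from perivascular cells, gave signals of 70.1 and 19.7 on Flk1-positive arrays, 24.7 and 7.34 on Flk1 KO arrays and 14.2 and 8.74 on WT arrays, and was not tested.

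ETS factors, the partners of Fox proteins at FOX:ETS motifs, were higher in Flk1-positive cells relative to WT embryos in 7 of 8 cases (87.5%, with 12.5% of all genes), with a median of 2.59. Erg rose by 3.52 ± 0.14 (adjusted p = 0.000388) and Fli1 by 3.19 ± 0.19 (adjusted p = 0.000547), both factors of endothelium and blood. Of 11 genes with reported FOX:ETS enhancers 10 were higher and 1 was lower (90.9% and 9.09%, with 12.5% and 18% of all genes), with a median of 2.87. The endothelial cadherin Cdh5 was higher by 4.34 ± 0.22 (adjusted p = 0.000435) and the adhesion receptor Pecam1 by 4.06 ± 0.21 (adjusted p = 0.00045). Both are also among the 10 endothelial markers above, all of which were higher, so this list is not separate from those markers. Pdgfrb, a receptor of mural cells, was lower by 0.99 on the log2 scale (adjusted p = 0.00642).

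Foxc target genes were split, with 2 of 5 higher, 2 lower (40% each, with 12.5% and 18% of all genes) and a median of 0.44. The Notch ligand Dll4 was higher by 2.26 ± 0.16 (adjusted p = 0.000744) and the integrin Itgb3 at least 3.29-fold (adjusted p = 0.00309). The chemokine receptor Cxcr4 had a difference of -1.21 ± 0.14 (adjusted p = 0.00311) and the pharyngeal factor Tbx1 one of -0.60 ± 0.13 (adjusted p = 0.0259). The Tbx1 call was lost without any 1 of the arrays compared (adjusted p up to 0.135).

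Foxf1, a factor of splanchnic mesoderm that is needed for yolk sac and lung vessels, gave signals of 971 and 1021 on Flk1-positive arrays, 1187 and 978 on Flk1 KO arrays and 949 and 790 on WT arrays. The arrays of Flk1-positive cells lay within or just above those of the embryos. Its difference from WT embryos was 0.20 with a 95% interval of -0.22 to 0.61 (adjusted p = 0.432), and a second probe set gave 0.35 (adjusted p = 0.338). Foxf2, its paralogue of gut mesenchyme, gave signals of 36.4 and 85.1 on Flk1-positive arrays, 112 and 78.2 on Flk1 KO arrays and 59.1 and 56.6 on WT arrays, with no call. In the RefSeq annotation Foxq1, Foxf2 and Foxc1 are adjacent protein-coding genes on chromosome 13, and Foxc2 and Foxl1 are adjacent on chromosome 8 with Foxf1 close by, separated from Foxc2 by 1 gene. Of the first cluster Foxc1 and Foxq1 were lower than in WT embryos. Foxf2, which lies between them, had no call. Its mean signals, 60.7 for the Flk1-positive group and 57.8 for WT, were near the background of 57.4. The missing call therefore does not set Foxf2 apart from its neighbours. Of the second cluster Foxc2 was lower and Foxf1, which is not adjacent to it, was not, while Foxl1 was not tested. Foxd2, also lower, is adjacent to Foxe3 on chromosome 4, and Foxe3 was not tested.

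Markers of somite and of lateral mesoderm were also lower in the Flk1-positive cells. The 6 somite markers summed to 478 to 503 in these cells (3 above background), 5949 to 6215 in Flk1 KO embryos and 5900 to 6049 in WT embryos (6 in each). The 7 markers of lateral mesoderm and mesenchyme summed to 2820 to 2881 in Flk1-positive cells (6 above background), 8192 to 9244 in Flk1 KO embryos and 7586 to 8586 in WT embryos (7 in each). Their part in the Foxc and Foxf values was not tested.

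Foxa1, Foxa2 and Foxa3 are pioneer factors of endoderm, and Foxa2 is also required for the node, notochord and floor plate. Foxa1 gave signals of 56.3 and 54.1 on Flk1-positive arrays, 1035 and 1036 on Flk1 KO arrays and 1069 and 1189 on WT arrays. The Flk1-positive arrays were at background and the 4 embryo arrays were close to each other. Foxa1 was at least 14.5-fold lower than in WT embryos (adjusted p = 0.000388) and at least 13.4-fold lower than in Flk1 KO embryos (adjusted p = 0.000153).

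Foxa2 gave signals of 67.1 and 34.1 on Flk1-positive arrays, 489 and 598 on Flk1 KO arrays and 610 and 579 on WT arrays, so that 1 of the Flk1-positive arrays was just above background and the other below it. It was at least 7.36-fold lower than in WT embryos (adjusted p = 0.00102) and at least 6.72-fold lower than in Flk1 KO embryos (adjusted p = 0.00101). Foxa3, the member of the trio that acts in liver and gut, gave signals of 52.4 and 37.7 on Flk1-positive arrays, 88.1 and 135 on Flk1 KO arrays and 101 and 116 on WT arrays. All its arrays were dim but the Flk1-positive ones were the lowest, at least 1.65-fold below WT embryos (adjusted p = 0.0289) and at least 1.66-fold below Flk1 KO embryos (adjusted p = 0.0256). The Foxa3 call against WT embryos was lost without any 1 of the arrays compared (adjusted p up to 0.134), and the call against Flk1 KO embryos when any array other than Flk1 KO array 1 was left out (up to 0.108).

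Of 10 tested genes of endoderm and midline, 6 were lower in Flk1-positive cells relative to WT embryos and 2 were higher (60% and 20%, with 18% and 12.5% of all genes), with a median of -1.05. The adhesion gene Epcam was at least 16.9-fold lower (adjusted p = 0.00125) and the epithelial cadherin Cdh1 had a difference of -4.40 ± 0.24 (adjusted p = 0.000459). The 2 that rose are also known from endothelium: Hhex by 3.07 ± 0.12 (adjusted p = 0.000388) and Sox17 by 1.95 ± 0.40 (adjusted p = 0.0207, lost without any 1 of the arrays compared, up to 0.0937). The 6 gut endoderm markers, which include Epcam, Cdh1 and Sox17, summed to 7228 to 7786 in Flk1-positive cells (5 above background), 20087 to 23106 in Flk1 KO embryos and 21758 to 23367 in WT embryos (6 in each). Their part in the Foxa values was not tested.

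Hedgehog signals from notochord and floor plate are a textbook output of Foxa2, which acts upstream of Shh. Of 14 tested hedgehog pathway genes 11 were lower in Flk1-positive cells relative to WT embryos and 1 was higher (78.6% and 7.14%, with 18% and 12.5% of all genes), with a median of -1.44. The ligand Shh had a difference of -3.59 ± 0.15 (adjusted p = 0.000388) and the effector Gli2 one of -3.45 ± 0.14 (adjusted p = 0.000388). The ligand Dhh was at least 1.27-fold higher (adjusted p = 0.0312), a call lost without any 1 of the arrays compared (up to 0.139), with the block (0.0575), with the smaller pseudocount (0.0608) and with the intensity trend (0.0829).

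Foxb1 and the Foxd genes are best known from neural tissue, neural crest and kidney precursors. Foxb1, expressed in the neural tube and diencephalon, gave signals of 14.9 and 59.3 on Flk1-positive arrays, 338 and 248 on Flk1 KO arrays and 297 and 307 on WT arrays. It was at least 4.05-fold lower than in WT embryos (adjusted p = 0.00758) and at least 3.89-fold lower than in Flk1 KO embryos (adjusted p = 0.00739). The embryo groups overlapped each other and neither overlapped the Flk1-positive cells.

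Foxd1, a factor of the forebrain, temporal retina and kidney stroma, gave signals of 85.9 and 32.5 on Flk1-positive arrays, 1390 and 1194 on Flk1 KO arrays and 860 and 976 on WT arrays. Both Flk1 KO arrays were above both WT arrays, a difference of 0.48 with a 95% interval of -0.35 to 1.31 that did not pass the threshold. Foxd1 was at least 10.2-fold lower in Flk1-positive cells relative to WT embryos (adjusted p = 0.00155) and at least 14.2-fold lower than in Flk1 KO embryos (adjusted p = 0.000922). Foxd2, expressed in paraxial mesoderm and kidney, gave signals of 114 and 63.8 on Flk1-positive arrays, 294 and 271 on Flk1 KO arrays and 264 and 292 on WT arrays. It differed by -1.48 ± 0.24 from WT embryos (adjusted p = 0.00948, and 0.0601 without WT array 2) and by -1.50 ± 0.24 from Flk1 KO embryos (adjusted p = 0.00818). Its mean stayed above background in the Flk1-positive cells, while those of Foxd1, Foxd3 and Foxd4 did not.

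Foxd3, which specifies neural crest and is needed in pluripotent cells, gave signals of 22.7 and 45.5 on Flk1-positive arrays, 245 and 260 on Flk1 KO arrays and 372 and 302 on WT arrays. It was at least 4.51-fold lower than in WT embryos (adjusted p = 0.00129) and at least 3.47-fold lower than in Flk1 KO embryos (adjusted p = 0.00183). The WT arrays were the highest, but the Flk1 KO difference from them, -0.38, had a 95% interval of -0.96 to 0.21.

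Foxd4, a gene of the early neural plate, gave signals of 7.32 and 46.6 on Flk1-positive arrays, 513 and 876 on Flk1 KO arrays and 857 and 962 on WT arrays. Its fitted difference from WT embryos, -4.39 ± 0.45, was the widest of the tested members. With the dim arrays set at background it was at least 11.8-fold lower than in WT embryos (adjusted p = 0.00227) and at least 8.77-fold lower than in Flk1 KO embryos (adjusted p = 0.00284). The Flk1 KO arrays were far apart and overlapped the WT arrays.

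The 7 neuroectoderm markers summed to 288 to 467 in Flk1-positive cells (3 above background), 9434 to 10191 in Flk1 KO embryos and 10671 to 10909 in WT embryos (7 in each). The 6 neural crest markers summed to 704 to 761 in Flk1-positive cells (2 above background), 3353 to 3989 in Flk1 KO embryos and 2994 to 3389 in WT embryos (6 in each). Their part in the Foxb1 and Foxd values was not tested. Foxb2, the paralogue of Foxb1, was below background on all 6 arrays.

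**Figure D2:**
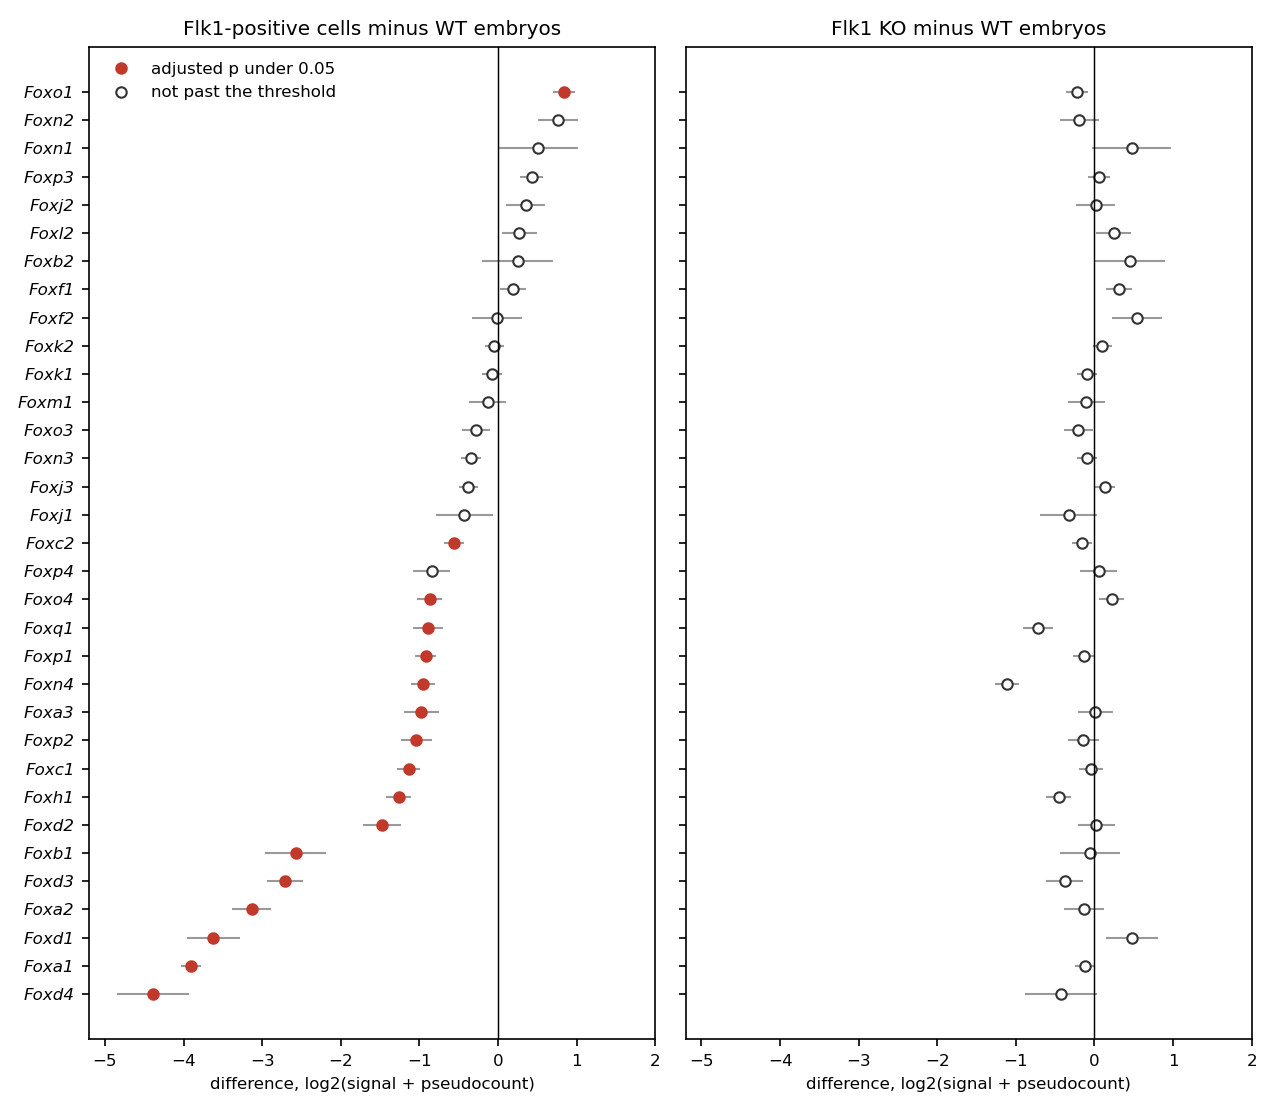
Difference of each of the 33 tested forkhead genes on the log2(signal + pseudocount) scale, with bars of 1 SE, in Flk1-positive cells against WT embryos (left) and Flk1 KO against WT embryos (right), genes in the same order. Filled points passed an adjusted p of 0.05: Foxo1 at 0.84 and 16 members between -0.56 and -4.39 on the left, none on the right.

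Foxh1 joins Smad proteins to carry Nodal signals to their target genes. It gave signals of 353 and 390 on Flk1-positive arrays, 608 and 727 on Flk1 KO arrays and 990 and 857 on WT arrays. The groups formed 3 separate levels with no overlap. The difference from WT embryos was -1.26 ± 0.16 (adjusted p = 0.0042) and from Flk1 KO embryos -0.81 ± 0.16 (adjusted p = 0.0162), the second lost without either Flk1-positive array or Flk1 KO array 2 (up to 0.0822). Flk1 KO embryos differed from WT embryos by -0.46 ± 0.16 (adjusted p = 0.532). Both other Foxh1 probe sets were lower in Flk1-positive cells relative to WT embryos, by -1.42 ± 0.23 and -1.07 ± 0.18.

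Of 14 tested Nodal pathway genes 7 were lower in Flk1-positive cells relative to WT embryos and 2 were higher (50% and 14.3%, with 18% and 12.5% of all genes), with a median of -0.91. The co-receptor Tdgf1 was at least 2.65-fold lower (adjusted p = 0.00045) and the feedback inhibitor Lefty2 at least 2.99-fold lower (adjusted p = 0.00516). The ligand Gdf3 was at least 1.25-fold higher (adjusted p = 0.00766) and the receptor Acvr1b was higher by 0.95 ± 0.14 (adjusted p = 0.00719). The Acvr1b call was lost without WT array 1 (0.0509) and with the median over its probe sets (0.116).

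Foxp proteins are repressors that act as dimers. Foxp1, needed in heart and lung, gave signals of 602 and 539 on Flk1-positive arrays, 1059 and 942 on Flk1 KO arrays and 1069 and 1125 on WT arrays. The Flk1-positive arrays were the lowest of the 6, at -0.92 ± 0.14 from WT embryos (adjusted p = 0.00758) and -0.79 ± 0.14 from Flk1 KO embryos (adjusted p = 0.0113). The first call was lost without WT array 2 (0.054) and the second without Flk1-positive array 2 (0.0648). Of its 7 other probe sets 5 were also lower than in WT embryos, 1 had the same sign without a call and 1, dim, had the opposite sign.

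Foxp2, known for its part in speech and motor circuits, gave signals of 85.6 and 106 on Flk1-positive arrays, 172 and 223 on Flk1 KO arrays and 246 and 194 on WT arrays. It differed by -1.04 ± 0.20 from WT embryos (adjusted p = 0.0161) and by -0.90 ± 0.20 from Flk1 KO embryos (adjusted p = 0.0234). The first call was lost without Flk1-positive array 1 or WT array 1 (up to 0.0887), the second without either Flk1-positive array or Flk1 KO array 2 (up to 0.105). Of its 5 other probe sets 2 were also lower than in WT embryos, 1 had the same sign and 2, at or below background, had the opposite sign.

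Foxp4, expressed in foregut and heart, gave signals of 237 and 259 on Flk1-positive arrays, 599 and 382 on Flk1 KO arrays and 499 and 425 on WT arrays. The groups of embryos overlapped each other and lay above the Flk1-positive cells. Its difference was -0.84 ± 0.23 from WT embryos (adjusted p = 0.051) and -0.89 ± 0.23 from Flk1 KO embryos (adjusted p = 0.0394). The second call was lost when any array other than Flk1 KO array 2 was left out (up to 0.141), and the first was gained without either Flk1 KO array (0.0217). The median over its probe sets also ended the second call (0.169), as did the smaller pseudocount, no filter and the fit of 2 groups only (0.054 to 0.07). The call against WT embryos was gained in 7 alternatives in all. Foxp3, the regulatory T cell factor, was below background on all 6 arrays.

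The 6 cardiomyocyte markers were all lower in Flk1-positive cells against WT embryos, with summed signals of 737 to 781 in Flk1-positive cells (3 above background), 13561 to 19554 in Flk1 KO embryos and 9859 to 10193 in WT embryos (6 in each). Their part in the Foxp1 and Foxp4 values was not tested.

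Forkhead factors recruit corepressors, such as Tle proteins for several subfamilies and Ctbp1 for Foxp1 and Foxp2. Of 9 tested corepressors 3 were lower in Flk1-positive cells relative to WT embryos (33.3%, with 18% of all genes) and none was higher, with a median of -0.42. Counting both directions, 5 were at an unadjusted p under 0.05, those 3 included. Tle3 had a difference of -1.26 ± 0.15 (adjusted p = 0.00357) and Tle4 one of -0.95 ± 0.18 (adjusted p = 0.0165). The Tle4 call was lost without Flk1-positive array 2 or either WT array (up to 0.0881).

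**Figure D3:**
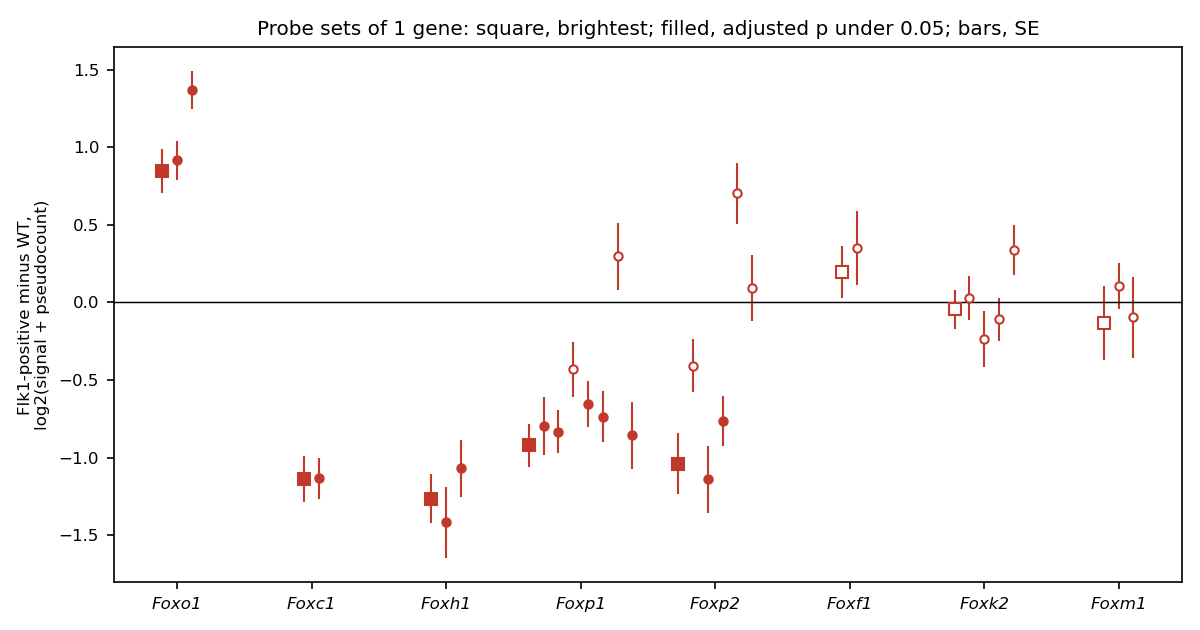
Difference between Flk1-positive cells and WT embryos (vertical axis, log2(signal + pseudocount), bars of 1 SE) for every tested probe set of 8 forkhead genes with several probe sets. Squares are the brightest probe set and filled symbols passed an adjusted p of 0.05; the 3 Foxo1 probe sets lie between 0.84 and 1.37, while Foxp1 and Foxp2 each hold symbols on both sides of 0.

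The Foxn genes fell into different patterns. Foxn2 gave signals of 1138 and 1194 on Flk1-positive arrays, 458 and 759 on Flk1 KO arrays and 639 and 718 on WT arrays. Both Flk1-positive arrays were above all embryo arrays, at 0.96 ± 0.25 from Flk1 KO embryos (adjusted p = 0.0387) and 0.76 ± 0.25 from WT embryos (adjusted p = 0.0777). The call against Flk1 KO embryos was lost when any array other than Flk1 KO array 2 was left out (up to 0.128), and a call against WT embryos appeared without either Flk1 KO array (0.0206). With the median over its probe sets, the second of which was below background, the difference from Flk1 KO embryos was 0.56 (adjusted p = 0.0648). Besides the 2-fold rule, 4 other alternatives also ended that call (0.0546 to 0.072). The call against WT embryos was gained in 6 alternatives in all. Foxn3, a checkpoint repressor, averaged 985 in Flk1-positive cells, 1178 in Flk1 KO embryos and 1255 in WT embryos, and its difference from WT embryos, -0.34 with a 95% interval of -0.66 to -0.03, did not pass the threshold after adjustment (0.107).

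Foxn4, a factor of retinal and spinal progenitors, gave signals of 13.1 and 16.3 on Flk1-positive arrays, 7.80 and 14.2 on Flk1 KO arrays and 47.6 and 49.4 on WT arrays. All 6 arrays were below background, so no fold is given. The fitted difference was -0.95 ± 0.15 in Flk1-positive cells (adjusted p = 0.00914) and -1.11 ± 0.15 in Flk1 KO embryos (adjusted p = 0.14), each against WT embryos. The first call was lost without Flk1-positive array 1 or either WT array (up to 0.0592) and with the intensity trend (0.069). Foxn1, the thymic epithelial factor, had no group mean above background, although Flk1-positive array 1 was above it at 61.0.

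Foxq1, a factor of stomach and hair follicle, gave signals of 55.5 and 34.8 on Flk1-positive arrays, 50.4 and 54.8 on Flk1 KO arrays and 95.2 and 106 on WT arrays. Only the WT arrays were above background, and Flk1-positive cells were at least 1.55-fold lower than they were (adjusted p = 0.0219). That call was lost without Flk1-positive array 2 or either WT array (up to 0.111). Flk1 KO embryos differed from WT embryos by -0.72 ± 0.19 (adjusted p = 0.407).

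Foxj1 is the master regulator of motile cilia, and Foxj2 and Foxj3 are broadly expressed relatives. Foxj1 was dim in every group, with signals of 48.6 and 29.4 on Flk1-positive arrays, 64.8 and 25.8 on Flk1 KO arrays and 45.1 and 75.3 on WT arrays, and the groups overlapped. Foxj3 gave signals of 1073 and 1082 on Flk1-positive arrays, 1596 and 1492 on Flk1 KO arrays and 1370 and 1443 on WT arrays. The Flk1-positive arrays were the lowest, at -0.51 ± 0.12 from Flk1 KO embryos (adjusted p = 0.0316) and -0.38 ± 0.12 from WT embryos (adjusted p = 0.0794). The second difference passed the threshold in 4 alternatives (adjusted p 0.0168 to 0.0461). The first was lost when any 1 of the 6 arrays was left out (up to 0.13), and with no filter, the 2 groups alone, the block or the median over probe sets (0.0512 to 0.0679). Foxj2 averaged 426 in Flk1-positive cells, 325 in Flk1 KO embryos and 326 in WT embryos, with no call.

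Of 13 tested motile cilia genes 5 were lower in Flk1-positive cells relative to WT embryos (38.5%, with 18% of all genes) and none was higher, with a median of -0.75. Counting both directions, 7 were at an unadjusted p under 0.05, those 5 included. Rsph1, of the radial spoke, was at least 2.75-fold lower (adjusted p = 0.00275), and Ccdc40, needed to assemble inner dynein arms, had a difference of -2.06 ± 0.25 (adjusted p = 0.00377). Both were above background in WT embryos.

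Foxm1 drives genes of mitosis. It averaged 580 in Flk1-positive cells, 602 in Flk1 KO embryos and 634 in WT embryos, with overlapping arrays and a difference from WT embryos of -0.13 (95% interval -0.72 to 0.46). Of 15 tested Foxm1 targets 5 were lower than in Flk1 KO embryos (33.3%, with 19.5% of all genes) and none was higher. Relative to WT embryos 3 were lower (20%, against 18% of all genes) and none was higher. That share is near the one of all genes, and the median was -0.13 against -0.09 for all genes. Counting both directions, 5 were at an unadjusted p under 0.05, those 3 included. The kinase Nek2 had a difference of -0.85 ± 0.14 (adjusted p = 0.00929) and the kinetochore gene Cenpf one of -0.71 ± 0.19 (adjusted p = 0.0456). Nek2 lost its call without Flk1-positive array 1 or WT array 2 (up to 0.0638) and with the median over its probe sets (0.803), and Cenpf without any 1 of the arrays compared (up to 0.193) and in 5 further alternatives other than the 2-fold rule.

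Foxk1 and Foxk2, regulators of autophagy and glycolysis, passed the threshold in no comparison at their brightest probe sets. Foxk1 averaged 565 in Flk1-positive cells, 559 in Flk1 KO embryos and 598 in WT embryos, a difference from WT embryos of -0.08 (95% interval -0.39 to 0.23). Foxk2 averaged 1442 in Flk1-positive cells, 1595 in Flk1 KO embryos and 1488 in WT embryos, a difference of -0.04 (-0.35 to 0.26). A dimmer Foxk2 probe set was above Flk1 KO embryos in Flk1-positive cells by 0.76 ± 0.16 (adjusted p = 0.0212), against the sign of the brightest one. Foxl2, the ovarian factor, averaged 361 in Flk1-positive cells, 359 in Flk1 KO embryos and 297 in WT embryos, also without a call.

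In 8 members no group had a mean above background: Foxb2, Foxe3, Foxi1, Foxl1, Foxn1, Foxn4, Foxp3 and Foxs1. Of these Foxe3 (lens), Foxi1 (inner ear and kidney), Foxl1 (gut mesenchyme) and Foxs1 were the 4 that failed the filter on low values. A signal at background does not show that a gene is silent. Of the 33 tested members, 31 had every group mean at or above the level of the filter, and Foxn4 was the one with a Flk1-positive mean below it. The Foxn4 log2 means were 5.18 in Flk1-positive cells, 5.02 in Flk1 KO embryos and 6.13 in WT embryos, against a level of 5.44. Foxn4 passed only through its WT arrays, so its call as lower is not separate from the filter.

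Flk1 KO embryos were set against WT embryos in the same fit, which compares embryos with and without the receptor. No forkhead gene passed the threshold in either direction by limma (all genes 0% higher and 0.14% lower, 21 genes), and 3 were at an unadjusted p under 0.05, namely Foxh1, Foxn4 and Foxq1, all with lower values. The differences ran from -1.11 for Foxn4 to 0.54 for Foxf2, 30 of 33 were within 0.5 of 0, and the median was -0.09 (all genes 0.002). Arrays did not overlap for 17 members, 7 higher and 10 lower (all genes 19.1% and 18.2%). The smallest adjusted p was 0.14, and the count stayed at 0 in each alternative run.

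For members with less spread between arrays the interval bounded the difference more closely. The 95% interval for Flk1 KO against WT embryos was -0.44 to 0.20 for Foxa1, -0.41 to 0.33 for Foxc1, -0.47 to 0.16 for Foxc2, -0.58 to 0.13 for Foxo1 and -0.48 to 0.21 for Foxp1. For the more variable members it was wider, -1.56 to 0.71 for Foxd4 and -1.02 to 0.91 for Foxb1. A p that misses the threshold does not show equal levels.

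In the same comparison 2 of 8 ETS factors and 2 of 11 genes with FOX:ETS enhancers were lower in Flk1 KO embryos (25% and 18.2%, with 0.14% of all genes). No gene of the other 9 related lists was called. The endothelial markers above, which share genes with the FOX:ETS list, were lower in 40% of cases, with a median of -1.67. Erg was at least 2.25-fold lower (adjusted p = 0.02) and Fli1 had a difference of -2.50 ± 0.19 (adjusted p = 0.0427). Tal1, a factor of blood and endothelium, was at least 4.70-fold lower (adjusted p = 0.0391), and the lymphatic receptor Flt4 had a difference of -2.54 ± 0.13 (adjusted p = 0.02). All 4 lost their calls when any 1 of the 6 arrays was left out (adjusted p up to 0.383), with the smaller pseudocount, with the fit of 2 groups only and with the block, where the count for all genes was also 0.

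**Figure D4:**
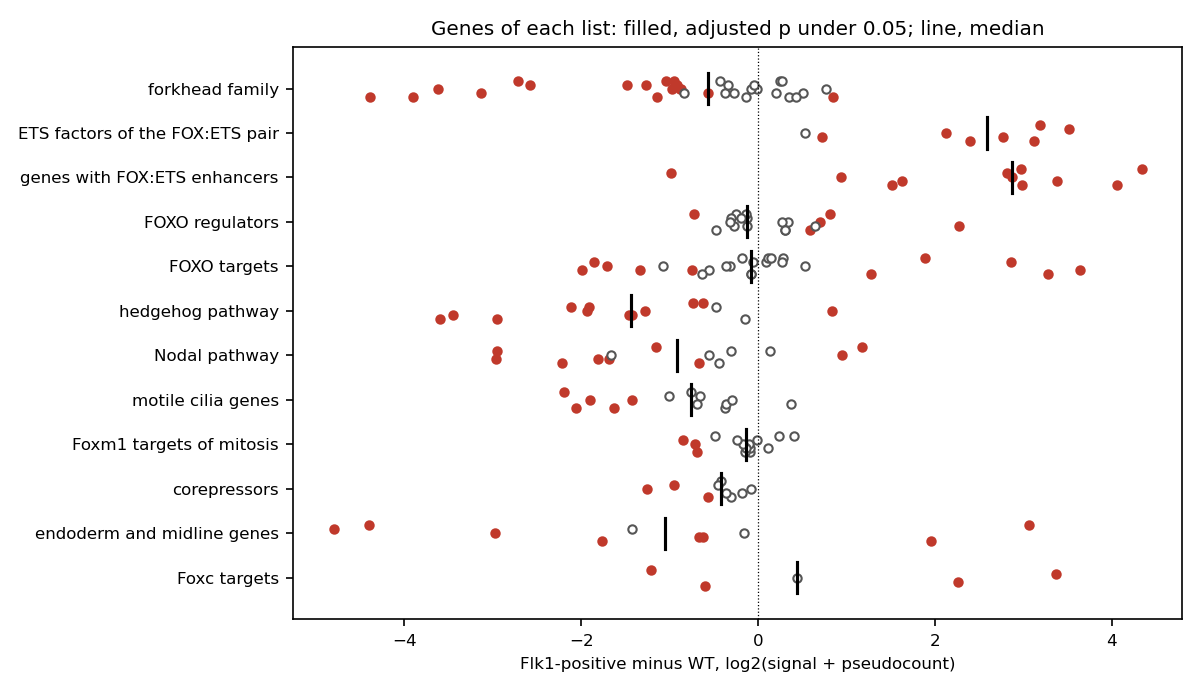
Difference between Flk1-positive cells and WT embryos (horizontal axis, log2(signal + pseudocount)) for each tested gene of the forkhead family and of 11 related lists, with 1 point per gene, filled where adjusted p was under 0.05, and a line at the median. The forkhead median is -0.56, the medians of ETS factors and genes with FOX:ETS enhancers are 2.59 and 2.87, and the hedgehog median is -1.44.

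Signs of RNA quality differed slightly between the groups. On the log2 scale the Tfrc control differed between its 3' and 5' probe sets by 1.26 and 1.35 on the Flk1-positive arrays and by 0.94 to 1.05 on the embryo arrays. For Actb this was 0.26 and 0.29 on the Flk1-positive arrays and 0.47 to 0.58 on the embryo arrays, and Gapdh lay between -0.37 and -0.32 on all arrays. Tfrc and Actb thus moved opposite ways, and their part in the forkhead values was not tested.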

How the data were processed

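An RNeasy Micro kit was used for the RNA, which was then biotin-labelled for Affymetrix arrays, per the labels' protocols, and the design text names GeneSpring. The deposited values are linear probe-set signals that the authors scaled before deposit: the trimmed mean (2% left out at each end) is 500 and the lowest value 1 on all 6 arrays. Which program made them is not stated in the labels or files. The files hold no detection calls, and the number of arrays limits the precision.

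Of 45101 probe sets, 34958 had 1 gene symbol in the platform annotation, 932 had several and 9211 had none; only those with 1 were named. Signals were transformed as log2(signal + 21.6), the pseudocount being the 25th percentile of all values. Probe sets whose mean log2 value was at or above the 25th percentile of such means were tested (33778). The planned wording allowed several readings of this filter, and this one was taken after call counts had been seen, because it matches earlier processing of these data. limma 3.58.1 in R 4.3.3 fitted group means to all 6 arrays (lmFit and eBayes, two-sided, with 3 degrees of freedom from the residuals and 2.49 from the prior), and p-values were adjusted by Benjamini-Hochberg over the 33778. A gene is read from its brightest probe set. A group whose mean log2 value was under that of background was set to background on each array below it, and the fold is then given as "at least", on the same log2 scale. Fits that leave an array out assume that the lone array varies like the other groups.

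Replicate numbers were checked for pairing: deviations of arrays with the same number correlated at 0.029 between Flk1-positive cells and Flk1 KO embryos, 0.008 between Flk1-positive cells and WT embryos and 0.0226 between Flk1 KO and WT embryos. The fit therefore has no block.

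Named were Kdr, every forkhead gene called in any comparison or above background in any group, and up to 2 genes with the largest rise and fall among those called from each of 11 related lists. The members and lists were chosen with earlier results of these data known. Promoters came from RefSeq (GRCm38.p6). The files name no genome build. Figures were drawn with matplotlib 3.10.9.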

Additional observations from a re-analysis of the deposited data

How the results depend on the processing

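No forkhead gene changed sign while called. Foxa1, Foxa2, Foxb1, Foxc1, Foxd1, Foxd3 and Foxd4 kept both of their calls in each alternative run. So did Foxh1 against WT embryos, and Foxd2 and Foxo1 against Flk1 KO embryos. Against WT embryos 1 gene was higher in Flk1-positive cells, but 2 with the pseudocount at the median, the filter at the 50th percentile, quantile normalization, the intensity trend with a robust prior, and the 2 groups alone, and 0 when a 2-fold difference was required. Against Flk1 KO embryos the 2 higher genes became 1 with the pseudocount at the 10th percentile, no filter, median centring, the 2 groups alone, the median over probe sets, and a 2-fold difference. With that difference the 16 genes lower than in WT embryos became 10, and the 15 lower than in Flk1 KO embryos became 9. For all genes, 2687 lower than in WT embryos became 1507, and 2915 lower than in Flk1 KO embryos became 1612. Leaving out 1 array at a time gave 0 to 2 genes higher and 9 to 17 lower than in WT embryos, and 1 to 2 higher and 9 to 13 lower than in Flk1 KO embryos. The counts of all genes, higher and lower in Flk1-positive cells, also fell in each run without 1 of the arrays compared. For the forkhead genes, Flk1 KO against WT embryos gave 0 in both directions throughout. The cause of these changes was not tested, beyond there being fewer samples or a stricter rule.

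With the replicate number as a block, counts were 1 higher and 16 lower against WT embryos and 2 higher and 14 lower against Flk1 KO embryos, since Foxj3 was no longer called (adjusted p = 0.0589). Arrays with the same number showed little shared deviation (correlations of 0.008 to 0.029), which does not settle how the samples were paired. A filter on the mean of linear signals, chosen after seeing the data, tested 34 genes and left all 6 counts as they were. Over all genes, those lower in the Flk1 KO group relative to WT numbered 21, and 0 to 78 among the alternatives. With 2 arrays per group, dim members such as Foxa3, Foxq1 and Foxn4 are limited by signal over background.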
